A study of Mus musculus with 20 samples.

Results

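The uterine transcriptome 24 h after HPTE was set directly against that 24 h after estradiol (E2), which asks how far the 2 compounds leave the uterus in different states at the end of the first day. The comparison rests on 5 of the 20 arrays of the series, chosen by their labels: 3 for HPTE (replicates 1, 2 and 3) and 2 for E2 (replicates 2 and 3, a first E2 replicate at this time not being analysed here). All mice were adult C57bl6/J females of 10 weeks or older, ovariectomized and left for 10 to 14 days, so that every group, the 3 mice given 100 µl of sesame oil alone as vehicle included, lacked ovaries. E2 was given at 250 ng and HPTE at 750 µg, subcutaneously in sesame oil, and uteri were taken 24 h later. The vehicle uteri were taken at 24 h as well. Besides vehicle, the other arrays were from E2 and HPTE at 2 h and bisphenol A (BPA, 750 µg) at 2 h and 24 h. All 20 arrays entered the estimate of the spread behind each test. RNA of the whole uterus was labelled with Cy3, and each array held 1 uterus, so n counts animals. The doses differ in mass, and every difference below is one between these doses. In whole-organ RNA, fewer cells of a type and less RNA per cell cannot be told apart.

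E2 is the steroid that the ovary secretes. HPTE is a metabolite of the pesticide methoxychlor, not a steroid, in which a pair of hydroxyphenyl groups is joined through a trichloroethane. Both bind estrogen receptor alpha, the product of Esr1, which acts in epithelium, stroma and muscle of the uterus. In an ovariectomized mouse a single dose of estrogen is known to act in phases. Immediate early genes and water uptake come within hours, and on the next day the epithelium synthesizes DNA, divides, enlarges its protein-making machinery and begins to secrete.

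Levels are given as scaled intensity, the processed array intensity divided by the 75th percentile of its array and multiplied by 1679 (the median of that percentile over the 20 arrays), in arbitrary units. They compare arrays for 1 probe and do not rank genes. Differences are HPTE minus E2 on the log2 scale, so negative values mean a lower level with HPTE, and a gene is said to have passed when the Benjamini-Hochberg adjusted p from limma was under 0.05. Of 41174 probes, 30936 were tested, being called well above background by the scanner software in the whole HPTE group, the whole E2 group or both. Across these probes the Pearson r between arrays was 0.991 for the E2 pair, 0.984 to 0.992 among the HPTE arrays, and 0.953 to 0.967 between an HPTE and an E2 array. That call was made for 74.3% to 77.8% of the probes of each of the 5 arrays.

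All 10 markers of uterine epithelium, all 10 of stroma and Müllerian identity and all 7 of uterine smooth muscle were well above background on all 5 arrays. Other tissues were visible as well. Of 23 exocrine pancreas markers on the array, 22 were well above background on both E2 arrays, where their summed level was 12960 and 35860. On the HPTE arrays the sum was 2174, 1360 and 2323, near the 1541 to 1846 of the vehicle arrays, and 5 of the 23, Cela2a, Pnlip, Reg1, Gp2 and Amy2a5, were not well above background on any HPTE array. Of the 22 that were tested, 21 did not overlap between the HPTE and E2 arrays, and the median difference was -4.40. Only 5 passed as lower with HPTE (Cpa1, Ctrc, Cela2a, Pnlip and Reg1), beside 22.8% of all probes. These 5 were well above background on at most 1 HPTE array each, so they entered the test only through E2, where they are high. The spread came from all arrays of the series, E2 at 2 h included, where these markers differed between arrays. With SEs of 1.8 to 3.1, not passing does not show equal levels. Male germ cell markers summed to 2835 to 3737 with HPTE, 907 and 1947 with E2, and 62190 to 209500 with vehicle, which touches any level set against vehicle. Lymphocyte markers summed to 7788 on HPTE replicate 1 and to 3001 to 3911 on the other 4 arrays. White fat markers spanned 17220 to 124000 among the HPTE arrays and lay at 34620 and 41510 with E2. The part of these tissues in the differences below was not tested.

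At 24 h the uteri of the 2 groups differed widely. Of the probes tested, 15866 passed (51.3%), 8810 of them higher with HPTE (28.5%) and 7056 lower (22.8%), and on 21458 probes (69.4%) no HPTE array overlapped an E2 array. Those percentages are the background against which every count of genes is set. With a difference of at least 2-fold as well, 4605 probes passed (14.9%), 2707 higher (8.75%) and 1898 lower (6.14%). Among probes well above background on at least 1 array of each group, 74 that passed were at least 8-fold lower and 39 at least 8-fold higher. The prevailing direction depended on scaling, with 55.5% of calls higher as above, 51.5% after quantile normalization, 49.7% after normexp correction, 41.3% for unscaled signals and 23.5% with scaling to the 8 spike-in probes. Under spike-in scaling the median of all probes was -0.26 instead of 0.07, so values below are relative to the bulk of transcripts. Each E2 array mattered to the total, which was 13618 without E2 replicate 2 and 11837 without E2 replicate 3. Each slide carries several arrays, and HPTE replicate 1 shared slide 2 with E2 replicate 2, and HPTE replicate 3 shared slide 5 with E2 replicate 3. HPTE replicate 2 was on slide 6, which held no E2 array, and was scanned on a different day from both E2 arrays. With the slide as a block 15068 probes passed. Within slide 2 and slide 5 the median differences of the lists described below were -1.15 and -1.25 for DNA replication, -1.21 and -1.19 for cholesterol synthesis, -1.03 and -1.18 for ribosome biogenesis, and 0.53 and 0.71 for Wnt signalling, while that of the myeloid genes was 1.18 and 0.12.

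The largest deficits under HPTE included keratins, proteins of the cornified envelope and a pump of the secretory pathway. Atp2c2, a calcium and manganese pump of the secretory pathway (probe at chr8:118390623-118390682, mm7), was at 31.6, 74.3 and 40.2 on the HPTE arrays and at 3609 and 3399 on the E2 arrays, a difference of -6.26 (SE 1.04, adjusted p = 0.000134). Krt85, a keratin of hair and nail (chr15:101502722-101502781), was at 80.3, 41.0 and 28.1 with HPTE and 3163 and 3468 with E2, a difference of -6.20 (SE 0.77, adjusted p = 9.18e-06). Every HPTE array lay below both E2 arrays for each of these genes, which was a condition for naming them. The vehicle arrays, at 29.3, 32.5 and 24.8 for Atp2c2 and 2.36, 8.67 and 7.46 for Krt85, overlapped the HPTE arrays for the first gene and lay below them for the second. Gsdmc2, of the gasdermin family of pore-forming proteins, was not well above background on any HPTE array (6.79, 7.42 and 4.81) and was at 404 and 336 with E2, at least 28.7-fold higher (adjusted p = 2e-08). That bound sets the E2 mean against the lowest signal called well above background on each HPTE array. A gene dim in one group, as here, entered the test only through the group in which it is high, so its p was in part fixed by that filter. The same holds for each bound given below and for any gene not well above background throughout both groups.

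Small proline-rich proteins, which are cross-linked into the cornified envelope, made up 3 of the 12 largest deficits. Sprr2f was at 1508, 4118 and 2070 with HPTE and at 104700 and 120000 with E2, a difference of -5.58 (SE 0.49, adjusted p = 3.38e-07). Its vehicle arrays lay at 482, 567 and 524, so HPTE stood above vehicle and well short of E2. Sprr2d was at 1601 and 3274 with E2 and no HPTE array came near these levels (-5.88, SE 0.49, adjusted p = 2.06e-07). These probes lie close together on chromosome 3 of mm7, Sprr2d at chr3:92446836-92446895 and Sprr2f at chr3:92472374-92472433. For Sprr2a1 the tested probes disagreed: 1 gave -5.29 (SE 0.42, adjusted p = 1.32e-07), and a far brighter one gave 0.08 with no separation (adjusted p = 0.545). Members of this family are closely alike in sequence, so which transcript each probe reads is uncertain.

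The remaining deficits of the same size included Chil1 and Chil5, chitinase-like lectins, the cornea keratin Krt12, Uox, the urate-degrading enzyme, and Unc5cl. Unc5cl varied little within groups, at 68.1, 77.8 and 67.5 with HPTE and 2499 and 2747 with E2 (-5.21, SE 0.18, adjusted p = 2.84e-10). Chil5 stood at 18.1, 17.4 and 14.0 with HPTE, level with the vehicle arrays (18.0, 18.1 and 18.6), against 507 and 915 with E2. Uox had a second probe with a difference of -5.60 on the same arrays, near the -5.76 of the first. The first was not well above background on every HPTE array, so it entered the test only through E2, where it is high. Amy2, pancreatic amylase, fell within the same 12 under an older symbol that the marker list did not hold. It was at 85.4, 116 and 140.2 with HPTE and 3532 and 8482 with E2 (-5.62, SE 2.06, adjusted p = 0.0331), and moved with the pancreas markers above. Its call was lost when any of the 5 arrays was left out, and with the replicate number as a block. The call held when the spread was taken from the 5 arrays alone. Otherwise the spread came from all arrays of the series, including the E2 arrays at 2 h, whose Amy2 levels, given below, lay far apart. The lost calls therefore do not show that the HPTE and E2 arrays at 24 h overlapped.

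The largest differences in favor of HPTE were mostly in genes expressed with vehicle and far lower with E2. Slc5a11, a sodium-coupled inositol transporter (chr7:119375760-119375819, mm7), was at 5898, 1518 and 2751 with HPTE, 1540, 1897 and 1672 with vehicle and 92.2 and 35.2 with E2, a difference of 5.67 (SE 0.44, adjusted p = 1.23e-07). Coch, an extracellular protein named for the cochlea, was at 987, 634 and 1052 with HPTE and 32.6 and 24.1 with E2 (4.96, SE 0.35, adjusted p = 4.72e-08), with vehicle at 2427, 1536 and 1983. Aldh1a3, which makes retinoic acid from retinal, was at 3220, 2865 and 3827 with HPTE and 267 and 125 with E2 (4.17, SE 0.31, adjusted p = 8.43e-08), and Inmt, an amine methyltransferase, at 25520, 17960 and 21570 and 1726 and 1364 (3.81, SE 0.20, adjusted p = 6.41e-09). For Coch, Aldh1a3 and Inmt every HPTE array lay between the vehicle and the E2 arrays, vehicle being at 6970, 6625 and 7313 for Aldh1a3 and 40070, 34220 and 42320 for Inmt. Kcne2, a potassium channel subunit, was at 532, 312 and 780.3 with HPTE and 32.8 and 17.7 with E2, a difference of 4.39 (SE 0.61, adjusted p = 2.62e-05), and its vehicle arrays (278, 522 and 369) overlapped the HPTE arrays, as they did for Slc5a11.

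The genes Speer4cos, Lgi1, Cadps, Ano2, Car4 and Cldn16 were not well above background on either E2 array, so only a lower bound on the difference is available. Speer4cos was at least 19.4-fold higher with HPTE (198, 292 and 339.9; adjusted p = 5.94e-07), Lgi1 at least 12.8-fold and Cadps, a factor of vesicle release, at least 10.8-fold (adjusted p = 2.03e-06 and 1.2e-07). Ano2, a calcium-activated chloride channel, was at least 8.45-fold higher, Car4, a membrane carbonic anhydrase, at least 7.88-fold, and the tight junction protein Cldn16 at least 3.05-fold (adjusted p = 1.22e-08, 6.98e-08 and 3.52e-08). Ano2 was at 113, 97.4 and 142 with HPTE and at 547, 564 and 593 with vehicle. The last of the 12, the immunoglobulin segment Igh-VJ558, was at 8390, 362 and 904 with HPTE, so a single array, the one with the highest lymphocyte markers, carried most of its difference of 3.73 (SE 1.33, adjusted p = 0.0291). Its call was lost without that array, as it was without either E2 array, and 8 other probes of the same name did not pass.

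**Figure D1:**
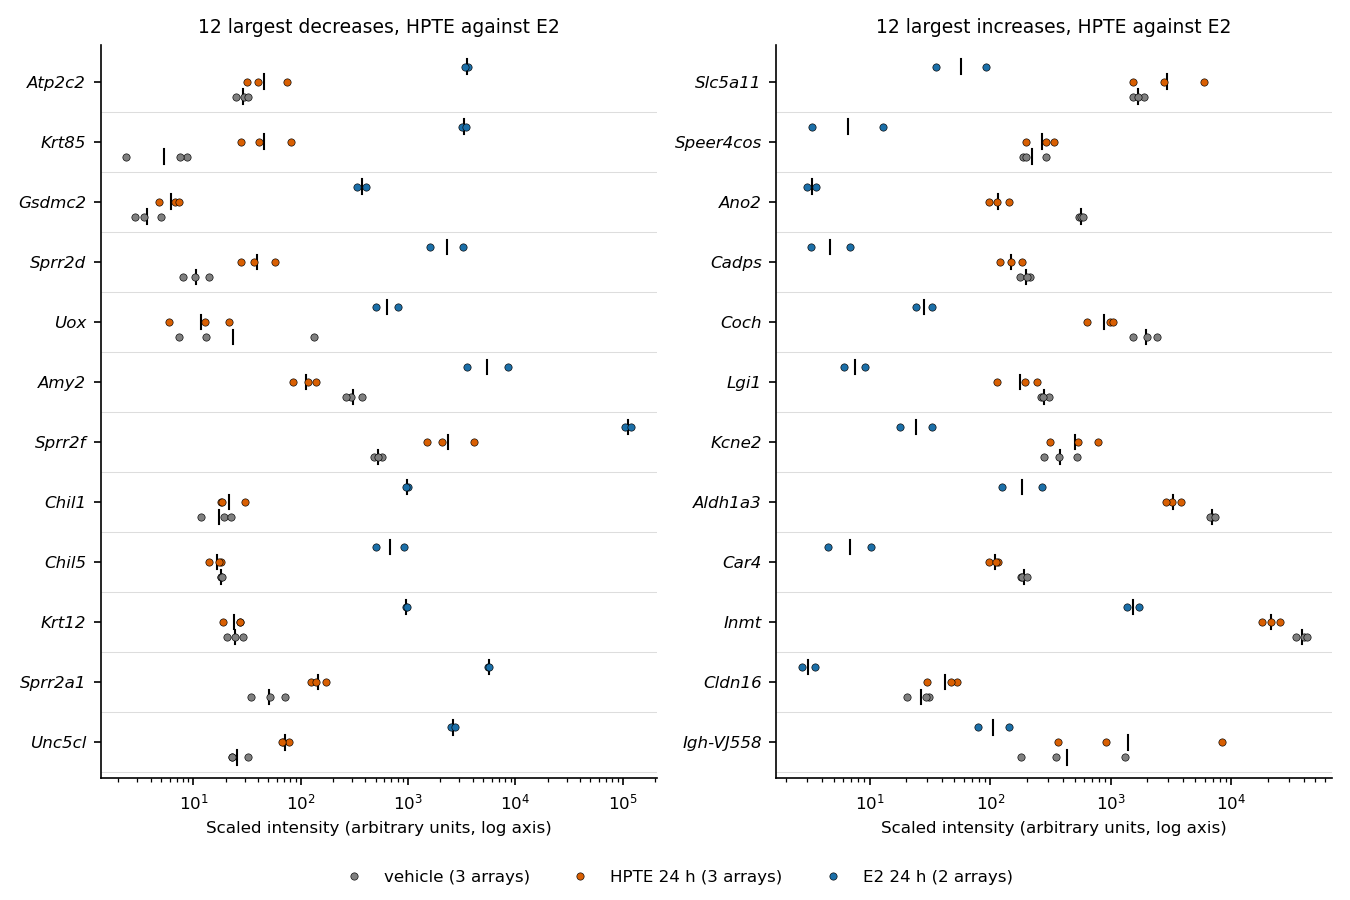
Scaled intensity (log axis, arbitrary units) of the 12 genes with the largest decrease and the 12 with the largest increase under HPTE against E2 at 24 h. Each point is 1 array of vehicle (3), HPTE (3) or E2 (2) and each tick is the geometric mean. In the left panel the E2 points of each gene lie to the right of both other groups, and in the right panel to the left of both. That no HPTE array overlapped an E2 array was a condition for choosing these genes.

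The cell cycle genes split by phase. Of 37 genes for DNA replication, 36 were lower with HPTE and none higher, with a median difference of -1.15, against 0.07 over all probes. Of 30 genes for G2 and mitosis, 9 were lower, 3 higher and 18 did not pass, with a median of -0.34. These counts stand beside 22.8% lower and 28.5% higher over all probes. The HPTE and E2 arrays did not overlap for 36 of the replication genes and 23 of the mitosis genes. The mitosis count is near the 69.4% of all probes without overlap. The split was visible array by array: relative to the vehicle mean, the median replication gene stood at 0.47, 0.59 and 0.38 on the HPTE arrays and at 1.49 and 1.51 on the E2 arrays, whereas the median mitosis gene stood at 2.42, 2.50 and 2.41 with HPTE and 2.65 and 2.72 with E2.

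Cdc6, which loads the replicative helicase onto origins, had the largest deficit of the replication genes. It was at 204, 192 and 151 with HPTE, 1199 and 1110 with E2 and 109, 119.7 and 113 with vehicle, a difference of -2.67 (SE 0.25, adjusted p = 5.33e-07). Mcm2, a subunit of that helicase, was at 1710, 1248 and 1433 with HPTE, about at or below vehicle (1709, 1851 and 1948), and at 8653 and 7042 with E2 (-2.43, SE 0.14, adjusted p = 1.26e-08). Ccne1, the cyclin E that drives entry into S phase, was at 1016, 836 and 699 with HPTE and 4429 and 4388 with E2 (-2.39, SE 0.35, adjusted p = 4.18e-05). The smallest differences in the list were those of Rfc1 at -0.19 (SE 0.08, adjusted p = 0.0733), the member that did not pass, Prim1 at -0.27 (SE 0.10, adjusted p = 0.0372) and Rfc2 at -0.34 (SE 0.07, adjusted p = 0.00114), which are subunits of the clamp loader and of primase. The Prim1 call was lost without E2 replicate 2, HPTE replicate 1 or HPTE replicate 3 and under each of the 4 other scalings, and the Rfc2 call under normexp, quantile and spike-in scaling (-0.13, -0.12 and -0.67). With each of the 5 arrays left out in turn, 34 to 37 of the 37 replication genes were lower.

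Among mitosis genes, Mad2l1, of the spindle checkpoint, was at 1136, 1265 and 1158 with HPTE and 2893 and 3440 with E2 (-1.41, SE 0.28, adjusted p = 0.000544). Top2a, the topoisomerase that untangles chromosomes, gave -1.02 (SE 0.25, adjusted p = 0.00312), and Cdk1, the kinase that starts mitosis, was at 2211, 2231 and 2177 with HPTE, 4583 and 3976 with E2 and 486, 546 and 446 with vehicle (-0.95, SE 0.19, adjusted p = 0.000544). Another probe of Cdk1 gave -0.66 and 2 others of Top2a gave -0.77 and -0.61, and none of them passed. Ube2c, a ubiquitin carrier of mitotic exit, was at 3285, 3399 and 3144 with HPTE and 5097 and 5148 with E2 (-0.65, SE 0.22, adjusted p = 0.0236), a call lost without either E2 array or without HPTE replicate 3. Ccnb2, a mitotic cyclin, was at 14400, 14720 and 14470 with HPTE and 14070 and 16250 with E2, overlapping values with a difference of -0.06 (SE 0.24, adjusted p = 0.864), against 2461, 1927 and 1511 with vehicle. Aurkb, a kinase of chromosome alignment, gave -0.52 (SE 0.21, adjusted p = 0.0514), and it passed after normexp correction and after quantile normalization. Cenpf, a kinetochore protein, was instead higher with HPTE, at 6080, 6854 and 6915 against 4205 and 4057 (0.68, SE 0.23, adjusted p = 0.0228), as were Cdc25b (0.37, SE 0.14, adjusted p = 0.0433) and Pttg1 (0.32, SE 0.09, adjusted p = 0.00547). None of these 3 passed without scaling or with spike-in scaling, where Pttg1 turned to -0.003, and none passed without E2 replicate 3. The Cenpf and Cdc25b calls were also lost without E2 replicate 2, HPTE replicate 2 or HPTE replicate 3. Another probe of Cenpf (0.84) and 2 others of Cdc25b (-0.17 and 0.30) did not pass. The count of 9 lower mitosis genes was 3 without E2 replicate 2, 5 without E2 replicate 3, 5 without HPTE replicate 3 and 15 when the spread was taken from the 5 arrays alone.

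The promoters of the 2 lists also carried different motifs, in RefSeq sequence of GRCm38.p6 from 250 bases before to 50 after each start. Each motif was searched on both strands. An E2F motif (TTTCCCGC or TTTGGCGC) was found in 9 of 34 replication promoters (26.5%), in 0 of 25 mitosis promoters and in 1.56% of all 32851. The TTTGAA core of the cell cycle homology region was found in 16 of the 25 mitosis promoters (64.0%), in 3 of the replication promoters (8.82%) and in 17.9% of all. CCAAT, the NF-Y box, was found in 21 mitosis promoters (84.0%), 19 replication promoters (55.9%) and 37.4% of all. Promoters were available for 29 of the replication and 24 of the mitosis genes. The palindromic estrogen response element was in none of either list, and in 23 of all promoters. A match describes letters and does not show that a factor binds there. The 250 bases before the start of 3 genes are given to set the patterns side by side: Cdc6, with the largest deficit, at chr11:98907901-98908150 on the plus strand, Cdk1 at chr10:69352913-69353162 and Ccnb2 at chr9:70421555-70421804, both on the minus strand. Capitals mark motif matches, read 5′ to 3′ along the gene.
Cdc6: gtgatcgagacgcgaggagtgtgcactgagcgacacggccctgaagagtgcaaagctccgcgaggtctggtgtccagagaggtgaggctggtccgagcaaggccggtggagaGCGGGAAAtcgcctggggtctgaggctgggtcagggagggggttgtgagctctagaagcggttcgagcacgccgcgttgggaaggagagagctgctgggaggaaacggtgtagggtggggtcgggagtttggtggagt
Cdk1: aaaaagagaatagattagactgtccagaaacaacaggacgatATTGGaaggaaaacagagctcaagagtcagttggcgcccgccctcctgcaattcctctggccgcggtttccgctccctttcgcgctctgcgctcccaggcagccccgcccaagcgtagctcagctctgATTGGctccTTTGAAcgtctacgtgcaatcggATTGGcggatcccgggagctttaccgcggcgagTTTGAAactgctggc
Ccnb2: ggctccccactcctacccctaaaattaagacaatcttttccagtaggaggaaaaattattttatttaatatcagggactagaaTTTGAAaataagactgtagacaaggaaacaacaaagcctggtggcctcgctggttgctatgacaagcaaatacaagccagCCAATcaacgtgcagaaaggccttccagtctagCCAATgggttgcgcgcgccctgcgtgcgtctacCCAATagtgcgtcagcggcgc
The Cdc6 stretch holds 1 E2F motif and no CCAAT or TTTGAA. That of Cdk1 holds 3 CCAAT and 2 TTTGAA, and that of Ccnb2 holds 3 CCAAT and 1 TTTGAA, with no E2F motif in either.

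Genes of cholesterol synthesis were lower with HPTE almost throughout. Of 23 genes, 21 were lower with HPTE and none higher, with a median of -1.10, and 18 to 22 were lower with 1 array left out. Relative to the vehicle mean the median gene stood at 0.66, 0.92 and 0.70 with HPTE and at 1.77 and 1.94 with E2, and at 2 h the median difference between the compounds was 0.20. Fdps, which makes farnesyl diphosphate, was at 4716, 5995 and 4582 with HPTE, 22430 and 23170 with E2 and 1543, 1690 and 1609 with vehicle (-2.17, SE 0.16, adjusted p = 6.12e-08). Sqle, which oxidizes squalene, was at 3049, 4717 and 3308 with HPTE and 12660 and 13560 with E2 (-1.85, SE 0.20, adjusted p = 1.95e-06). For both enzymes HPTE stood above every vehicle array and below both E2 arrays. Srebf2, the transcription factor of the pathway, gave -0.24 (SE 0.13, adjusted p = 0.15) on its brightest probe, with the sign turned to 0.004 after normexp correction, while 2 of its 3 other probes passed at -0.91 and -0.50. Pmvk and Lss, with -0.32 and -0.34, had small differences that passed, both lost without E2 replicate 3, and 2 other probes of Lss gave -1.87 and -1.79. CCAAT was present in 16 of 19 promoters of this list (84.2%), and in 18 of 19 promoters of the folding genes described below (94.7%). The sterol regulatory element (TCACNCCAC) was found in 1 cholesterol promoter (5.26%), against 1.24% of all promoters.

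Genes for making ribosomes lay near vehicle with HPTE and above it with E2. Of 26 ribosome biogenesis genes, 24 were lower with HPTE and none higher (median -1.10), and 23 were lower with any 1 of the 5 arrays left out. The median gene lay at -0.16, -0.05 and -0.16 relative to the vehicle mean with HPTE and at 0.93 and 1.07 with E2. Rrp12, a ribosome export factor, was at 124, 133 and 122 with HPTE and 840.4 and 972 with E2 (-2.84, SE 0.25, adjusted p = 3.92e-07), with vehicle at 116, 215 and 225. Nolc1, a nucleolar chaperone, was at 1161, 1371 and 1308 and 4437 and 5623 (-1.97, SE 0.18, adjusted p = 3.87e-07), and Nhp2, of the particles that modify ribosomal RNA, at 8865, 9888 and 9836 and 27970 and 36620 (-1.75, SE 0.12, adjusted p = 3.77e-08). Npm1, an abundant nucleolar protein, gave -0.06 (SE 0.07, adjusted p = 0.51) and Polr1c, a polymerase subunit, -0.08 (SE 0.09, adjusted p = 0.48), values whose sign turned with quantile normalization (0.03 and 0.14).

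Of 21 genes for protein folding in the endoplasmic reticulum, 16 were lower with HPTE and 2 higher (median -1.07; 14 to 16 lower with 1 array left out). Sdf2l1 was at 2446, 2384 and 1505 with HPTE and 8844 and 11100 with E2 (-2.26, SE 0.47, adjusted p = 0.000919). Hyou1, a chaperone, gave -1.85 (SE 0.24, adjusted p = 1.41e-05) and Manf, a secreted stress-induced factor, -1.80 (SE 0.21, adjusted p = 5.92e-06). Ddit3, which encodes the stress regulator CHOP, went the other way, at 2418, 1935 and 2030 with HPTE and 1213 and 949 with E2 (0.98, SE 0.17, adjusted p = 0.000182), as did Herpud1 (0.60, SE 0.23, adjusted p = 0.0371), whose call was lost without 4 of the 5 arrays. Neither passed with spike-in scaling, and Dnajb9 (0.17, SE 0.12, adjusted p = 0.251) turned sign there (-0.16). Relative to the vehicle mean, the median folding gene lay at 0.01 to 0.22 with HPTE and at 1.29 and 1.33 with E2.

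**Figure D2:**
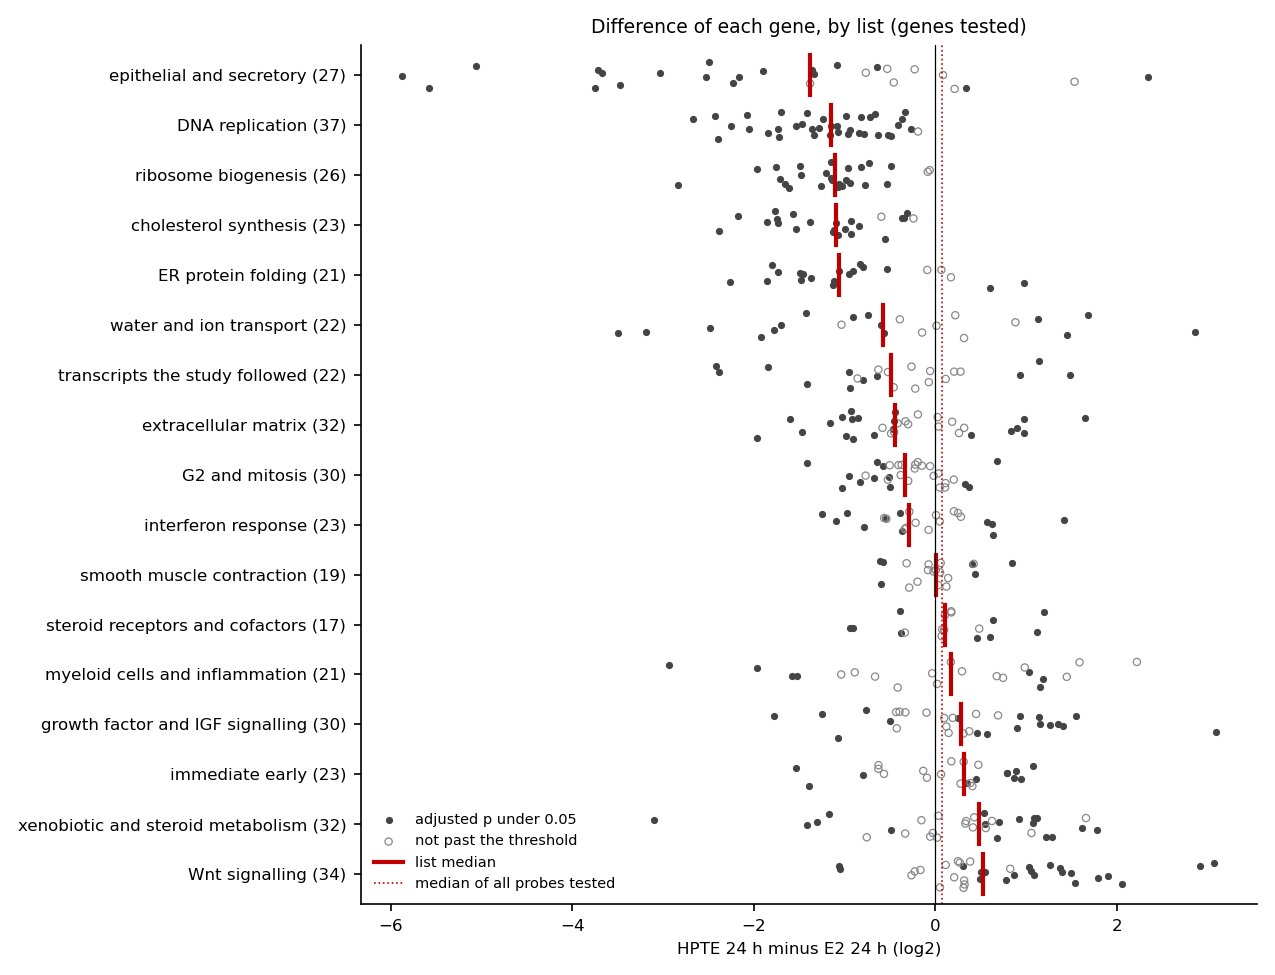
Difference between HPTE and E2 at 24 h (log2, negative means lower with HPTE) for every tested gene of the 17 lists, with the number of genes in parentheses. Filled points passed the threshold, open points did not, red bars are list medians and the dotted line is the median of all probes tested (0.07). Replication, ribosome biogenesis, cholesterol synthesis and folding genes lie almost wholly left of 0, and Wnt signalling genes lie mostly right of it.

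Estrogen-responsive epithelial and secretory genes had the widest range. Of 27 tested, 17 were lower with HPTE and 2 higher, with a median of -1.38 and a span of -5.88 to 2.34, and 17 or 18 were lower with 1 array left out. Padi2, which converts arginine to citrulline in proteins, was at 409, 487 and 458 with HPTE, 14890 and 15220 with E2 and 399.8, 469 and 497 with vehicle (-5.06, SE 0.17, adjusted p = 2.84e-10). Its HPTE and vehicle arrays overlapped. The antibacterial proteins Ltf and Lcn2 passed at -3.03 and -3.67, Muc1, a cell surface mucin, at -1.90, and Krt19, a simple epithelial keratin, at -1.34. Lrp2, an endocytic receptor, was higher with HPTE, at 1712, 818 and 696 against 212 and 181 (2.34, SE 0.35, adjusted p = 5.87e-05), and Ctsl, a lysosomal protease, slightly so (0.33, SE 0.10, adjusted p = 0.0119), a call lost without E2 replicate 3. Slpi, a secreted protease inhibitor, was at 34230, 2718 and 1660 with HPTE and 1082 and 3176 with E2, so that HPTE replicate 1 alone stood high and the difference did not pass (1.53, SE 1.08, adjusted p = 0.255). The summed epithelial markers lay at 250200 to 274500 with HPTE, 315000 and 360500 with E2 and 150300 to 175900 with vehicle, and their part in these differences was not tested.

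Water and ion transport genes moved in both directions, 11 of 22 lower and 4 higher (median -0.58), beside 22.8% and 28.5% of all probes. The water channel Aqp8 was at 162, 149 and 141 with HPTE, below the vehicle arrays (468, 298 and 239), and at 1403 and 2062 with E2 (-3.50, SE 0.35, adjusted p = 1e-06). The carbonic anhydrases Car12 and Car2 gave -3.18 (SE 0.27, adjusted p = 2.68e-07) and -2.48 (SE 0.23, adjusted p = 4.8e-07), Car2 being at 11180, 12310 and 11190 with HPTE and 64270 and 64690 with E2. All 3 subunits of the epithelial sodium channel were instead higher with HPTE. Scnn1b was at 412, 563 and 788 against 235 and 185 (1.45, SE 0.23, adjusted p = 7.63e-05), Scnn1a passed at 1.13, and Scnn1g was at 39.8, 50.5 and 80.0 with HPTE and not well above background with E2, at least 3.96-fold higher (adjusted p = 0.000195). Aqp11 was at 1886, 1714 and 2049 with HPTE and 689.5 and 497 with E2 (1.68, SE 0.20, adjusted p = 5.67e-06). Cftr, the chloride channel, was lower with HPTE at -1.70.

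Wnt signalling was the list with the most genes higher under HPTE, 19 of 34, with 2 lower and a median of 0.52, which stayed above 0 under each scaling (0.20 with spike-in scaling, where 9 were higher). Wnt proteins signal between uterine stroma and epithelium. Of the ligands, Wnt11 was at 756, 558 and 683 with HPTE and 64.3 and 119 with E2 (2.92, SE 0.19, adjusted p = 3.14e-08), with vehicle at 605, 639 and 683, and Wnt2 passed at 1.90. Wnt5a and Wnt7b, with -1.05 (SE 0.30, adjusted p = 0.00825) and -1.06 (SE 0.29, adjusted p = 0.0064), were the 2 lower members. The first call was lost without E2 replicate 3 and the second without E2 replicate 2. Secreted antagonists were higher: Wif1 was at 1407, 1299 and 2019 with HPTE and 195 and 173 with E2 (3.07, SE 0.36, adjusted p = 4.79e-06), and Sfrp2 at 11480, 13740 and 13180 and 2948 and 3180 (2.06, SE 0.17, adjusted p = 1.6e-07). Vehicle arrays were above every HPTE array for Sfrp2 (17090, 15160 and 17010) and overlapped them for Wif1 (1974, 3130 and 2140). Axin2 and Lef1, which the pathway itself induces in many tissues, passed at 1.05 and 1.37, and the receptor Lgr5 at 1.80. The median gene stood at -0.34, -0.35 and -0.30 relative to the vehicle mean with HPTE, and at -0.88 and -1.03 with E2.

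Growth factor genes differed in both directions, with 5 of 30 lower and 12 higher, beside 22.8% and 28.5% of all probes. Their median was 0.28, turning to -0.05 with spike-in scaling, where 3 were higher. Without E2 replicate 3, 3 were lower and 8 higher. Within the IGF family the ligand and its partners diverged. Igf1, the growth factor that estrogen induces in uterus, was at 4745, 5067 and 4074 with HPTE, 13410 and 18760 with E2 and 3539, 4057 and 3527 with vehicle (-1.78, SE 0.20, adjusted p = 3.28e-06). Its receptor Igf1r was at 8091, 9118 and 9101 with HPTE and 2746 and 3263 with E2 (1.55, SE 0.12, adjusted p = 8.8e-08), and 3 other probes of Igf1r also passed, at 1.35 to 1.90. Igfbp3, which binds the ligand in plasma and tissue, was at 16060, 12450 and 14850 with HPTE, 1723 and 1641 with E2 and 23720, 22280 and 24270 with vehicle (3.10, SE 0.14, adjusted p = 2.3e-09), and Igfbp2 was lower (-1.25, SE 0.37, adjusted p = 0.0111), a call lost without either E2 array. The hedgehog ligand Ihh, its receptor Ptch1 and the factors Bmp2 and Bmp4 were higher with HPTE, at 1.26, 1.40, 1.15 and 1.35, the Ptch1 call being lost without E2 replicate 3 or HPTE replicate 3. Fgf2 was lower at -1.07 (SE 0.17, adjusted p = 9.29e-05), and Vegfa, which drives vessel growth and permeability, at -0.77. Endothelial markers were higher with HPTE for 6 of 8 genes, with sums of 43070 to 51110 with HPTE, 23160 and 26920 with E2 and 51270 to 57990 with vehicle.

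Esr1 levels overlapped between the groups. The gene was at 12660, 16540 and 15170 with HPTE and 11860 and 14280 with E2, a difference of 0.18 (SE 0.21, adjusted p = 0.526) that turned to -0.15 with spike-in scaling, and a second probe gave -0.08. Among 17 steroid receptors and cofactors, 4 were lower and 5 higher, near the 22.8% and 28.5% of all probes. Their median of 0.10, beside 0.07 over all probes, turned to -0.04 for unscaled signals and -0.22 with spike-in scaling. Pgr, the progesterone receptor and a classical estrogen target, was at 490.3, 463 and 506 with HPTE and 824 and 1003 with E2 (-0.90, SE 0.10, adjusted p = 3.31e-06), with vehicle at 425, 489 and 448. Greb1, another estrogen target and receptor cofactor, was at 664, 620.3 and 609.5 and 1317 and 1117 (-0.94, SE 0.19, adjusted p = 0.000602). Foxa2, a factor of uterine glands, was at 6186, 5679 and 8443 with HPTE and 2855 and 2946 with E2 (1.20, SE 0.31, adjusted p = 0.00466), and Gper1, a membrane receptor for estrogen, at 1291, 1099 and 1154 and 471 and 626 (1.12, SE 0.22, adjusted p = 0.000479). Ncoa2, a coactivator, gave 0.64 (SE 0.08, adjusted p = 7.52e-06), while 2 other probes of it did not pass. None of the 5 higher members passed with spike-in scaling.

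In the extracellular matrix, 14 of 32 genes were lower with HPTE and 6 higher (median -0.45), the latter being 3 without E2 replicate 3 and 1 with spike-in scaling. Chains of collagen VI were lower, with Col6a2 at 6772, 7591 and 5750 with HPTE and 25050 and 27180 with E2 (-1.97, SE 0.22, adjusted p = 3.65e-06), Col6a3 at -1.60 (SE 0.13, adjusted p = 2.07e-07) and Col6a1 at -1.17. Vcan, a large hyaluronan-binding proteoglycan, gave -1.47 (SE 0.20, adjusted p = 2.26e-05). Fbln1, a matrix glycoprotein, was higher with HPTE at 22600, 26080 and 25800 against 7805 and 7997 (1.65, SE 0.13, adjusted p = 1.38e-07). The fibrillar collagens Col1a1, Col1a2 and Col3a1, with -0.58, -0.49 and -0.33, did not pass. Over all probes 22.8% were lower and 28.5% higher, which stands beside the matrix counts above and the muscle counts below. Of the smooth muscle genes, 3 of 19 were lower and 3 higher with a median of 0.005, which lay at -0.07 after normexp correction, -0.14 without scaling and -0.32 with spike-in scaling. The lower count was 1 without E2 replicate 2, and the higher count was 1 without E2 replicate 3 or HPTE replicate 2. The muscle regulator Myocd was higher at 0.85 (SE 0.20, adjusted p = 0.00263), the filament protein Des lower at -0.59 (SE 0.18, adjusted p = 0.0115) and Gja1, the gap junction protein of myometrium, lower at -0.61 (SE 0.17, adjusted p = 0.0071). The Des call was lost without E2 replicate 2 and under normexp, quantile and spike-in scaling (-0.37, -0.39 and -0.92), the Gja1 call without E2 replicate 3 and under spike-in scaling, and the Myocd call under spike-in scaling. For the abundant Acta2 and Tagln the differences were -0.02 and 0.00.

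Myeloid and interferon genes differed less evenly, and their counts stand beside 22.8% lower and 28.5% higher over all probes. Of 21 myeloid and inflammatory genes 4 were lower and 3 higher (median 0.17, or -0.16 with spike-in scaling), with 1 lower without E2 replicate 3 and 6 higher without HPTE replicate 2, and the arrays overlapped for 12 of them. Ccl11, the chemokine that attracts eosinophils to the uterus, was at 699, 774 and 927 with HPTE and 2762 and 3456 with E2 (-1.96, SE 0.21, adjusted p = 2.17e-06). Cxcl5, a neutrophil chemokine, was at 69.7, 39.7 and 45.7 and 169 and 872 (-2.93, SE 0.93, adjusted p = 0.0157), a call lost without E2 replicate 3. The macrophage genes Adgre1 and Csf1r had differences of 1.45 (adjusted p = 0.146) and 1.15, the latter of which passed, and HPTE replicate 1 was high for Adgre1 (17500, 6283 and 8933). Of 23 interferon genes 7 were lower and 4 higher (median -0.29, but 0.16 within slide 5). Isg15, a ubiquitin-like protein, was at 2809, 1794 and 3023 with HPTE and 5877 and 5891 with E2 (-1.25, SE 0.30, adjusted p = 0.00262), and Bst2, which tethers virions, at 30130, 31840 and 32240 and 60740 and 62300 (-0.97, SE 0.10, adjusted p = 1.1e-06). The count of lower interferon genes was 2 without E2 replicate 2, 4 without HPTE replicate 1 and 3 without HPTE replicate 2, and that of higher ones was 0 without E2 replicate 3 and 2 without HPTE replicate 1 or 3.

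Of 32 genes of xenobiotic and steroid metabolism 12 were higher with HPTE and 5 lower (median 0.48), beside 28.5% and 22.8% of all probes. The lower count was 2 without E2 replicate 3. Sult1a1, a phenol sulfotransferase, was at 1810, 1630 and 1422 with HPTE and 510.1 and 431 with E2 (1.78, SE 0.20, adjusted p = 3.05e-06), and Abcb1a, an efflux pump, at 641, 363 and 462 and 218 and 110.0 (1.62, SE 0.26, adjusted p = 9.52e-05). Vehicle arrays were above every HPTE array for Sult1a1 (2018, 2676 and 2130). Cyp1b1, which hydroxylates E2, gave 1.66 (SE 0.71, adjusted p = 0.0635) without passing. Hsd17b2, which oxidizes E2 to estrone, was not well above background on any HPTE array (8.3, 10.6 and 9.04) and was at 89.7 and 70.5 with E2, at least 6.19-fold lower with HPTE (adjusted p = 0.000133). The glutathione transferases Gsta1 and Gsta2 were lower at -1.31 and -1.42, and both calls were lost without E2 replicate 3. With spike-in scaling 3 genes of this list were higher.

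Immediate early genes at 24 h were 3 of 23 lower and 8 higher (median 0.31, -0.02 with spike-in scaling, where none was higher), and 5 were higher without HPTE replicate 3. Over all probes 22.8% were lower and 28.5% higher, which also stands beside the counts of PCR transcripts below. Klf4, an epithelial transcription factor, was at 15770, 16740 and 15440 with HPTE and 36910 and 47640 with E2 (-1.39, SE 0.11, adjusted p = 1.88e-07), and Ier3 gave -1.54 (SE 0.17, adjusted p = 2.83e-06). Jun was at 5270, 5152 and 6389 and 2569 and 2713 (1.08, SE 0.17, adjusted p = 7.89e-05) and Ccn2, a matricellular factor, gave 0.95 (SE 0.19, adjusted p = 0.000713). Of 22 transcripts that the study followed by PCR or used to group responses, which were the study's own choice, 8 were lower and 3 higher. Inhbb, an activin and inhibin subunit, was at 3294, 3387 and 3256 with HPTE and 8412 and 16820 with E2 (-1.84, SE 0.31, adjusted p = 0.000172). The clock gene Per1 gave 1.14 (SE 0.23, adjusted p = 0.000776).

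**Figure D3:**
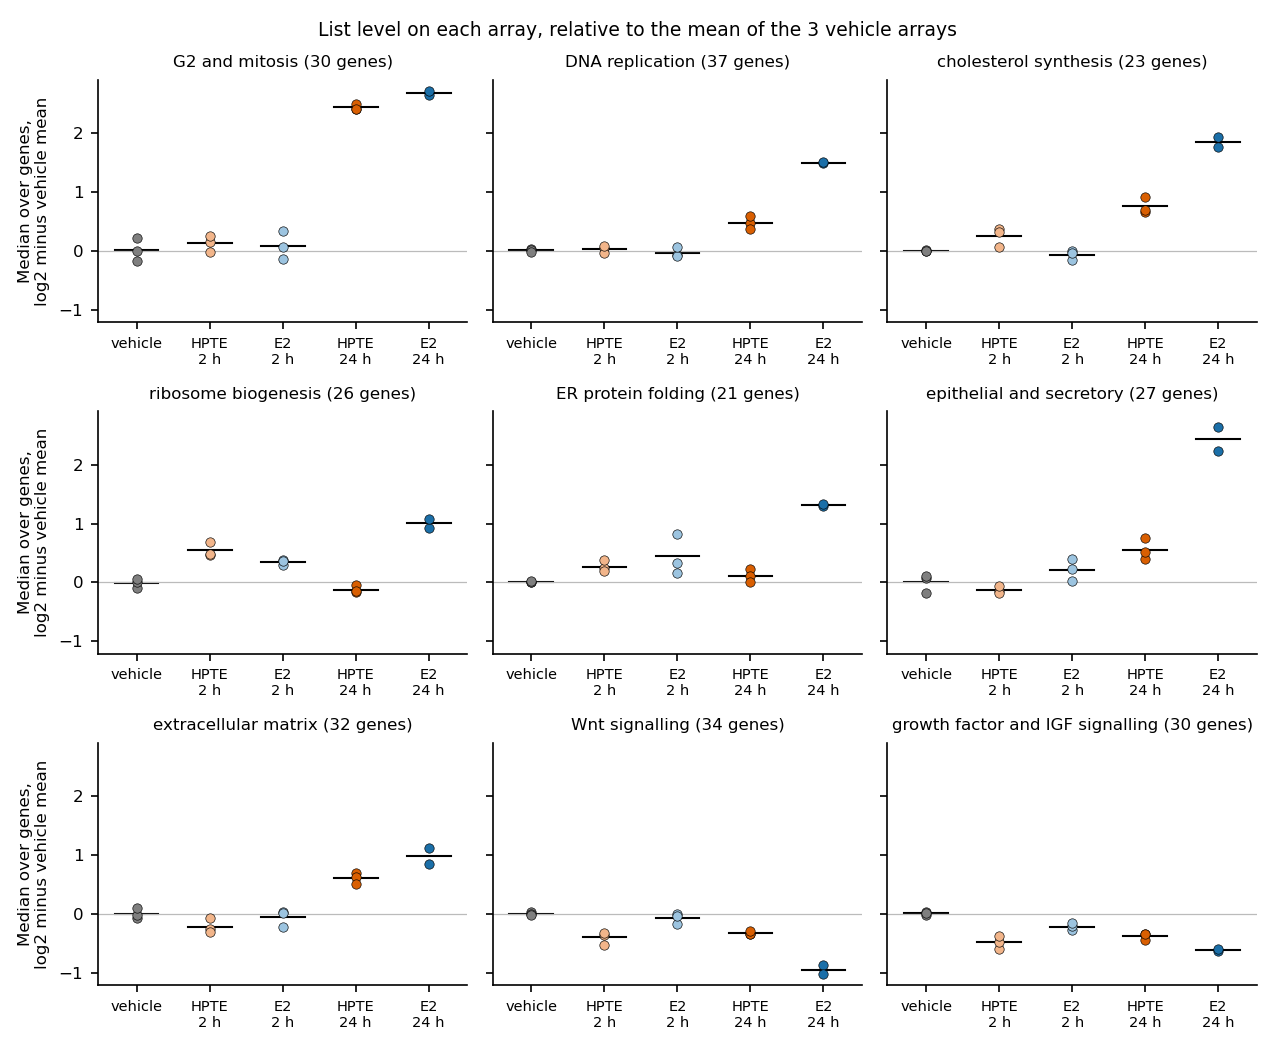
Median over the genes of 9 lists of each gene's log2 level minus its mean on the 3 vehicle arrays (vertical axis). Points are single arrays of vehicle at 24 h and of HPTE and E2 at 2 h and 24 h, with bars at group means. The series has no vehicle array at 2 h, so the 2 h points are set against 24 h vehicle. At 24 h the mitosis genes stand at 2.41 to 2.50 with HPTE and 2.65 and 2.72 with E2, whereas the replication genes stand at 0.38 to 0.59 and 1.49 to 1.51.

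The difference between the compounds at 24 h was then set against the one at 2 h, when HPTE and E2 had 3 arrays each and shared none with the 24 h groups. A limma test of the change between the times passed for 14978 probes (48.4%), 8252 of them towards higher with HPTE (26.7%) and 6726 towards lower (21.7%). Median list differences at 2 h were 0.08 for replication, 0.20 for cholesterol synthesis and 0.17 for ribosome biogenesis, against -1.15, -1.10 and -1.10 at 24 h. The change between times passed and was towards lower for 35 of 37 replication genes, 17 of 23 cholesterol genes, 22 of 26 ribosome biogenesis genes and 6 of 30 mitosis genes. It was towards higher for 21 of 34 Wnt genes and 15 of 30 growth factor genes.

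Large changes between times included genes whose order reversed. Trim15, of the tripartite motif ubiquitin ligase family, was at 264, 257 and 324 with HPTE and 15.4, 22.1 and 29.1 with E2 at 2 h, but at 15.8, 4.46 and 5.84 and 109 and 143 at 24 h, a change of -7.78 (SE 0.86, adjusted p = 4.52e-06). Its probe was well above background on 1 of the 3 HPTE arrays at 24 h, so it entered the tests only through E2 at 24 h, where it is high. Padi2 reversed as well, from 5600, 5219 and 5884 with HPTE and 1517, 2117 and 2024 with E2 at 2 h. Uox was at 22.9, 36.6 and 26.6 with HPTE and 10.5, 5.66 and 3.22 with E2 at 2 h, and its probe was well above background on no E2 array at 2 h and on 1 of the 3 HPTE arrays at 24 h. In the other direction, Lgi1 was at 19.1, 21.3 and 28.5 with HPTE and 91.4, 82.8 and 63.8 with E2 at 2 h, against at least 12.8-fold higher with HPTE at 24 h (change 6.35, adjusted p = 2.39e-06). Slc5a11, with a change of 6.17, was at 1329, 915 and 1191 and 1461, 1884 and 1478 at 2 h, and Speer4cos changed by 6.30. The changes of Lgi1 and Speer4cos are fitted values and no bounds, since both were dim with E2 at 24 h. Ccnb2, Esr1, Ube2c and Aurkb did not pass this test. Amy2 was at 222, 239 and 214 with HPTE and 159.5, 522500 and 93500 with E2 at 2 h, where the pancreas markers also differed between arrays.

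**Figure D4:**
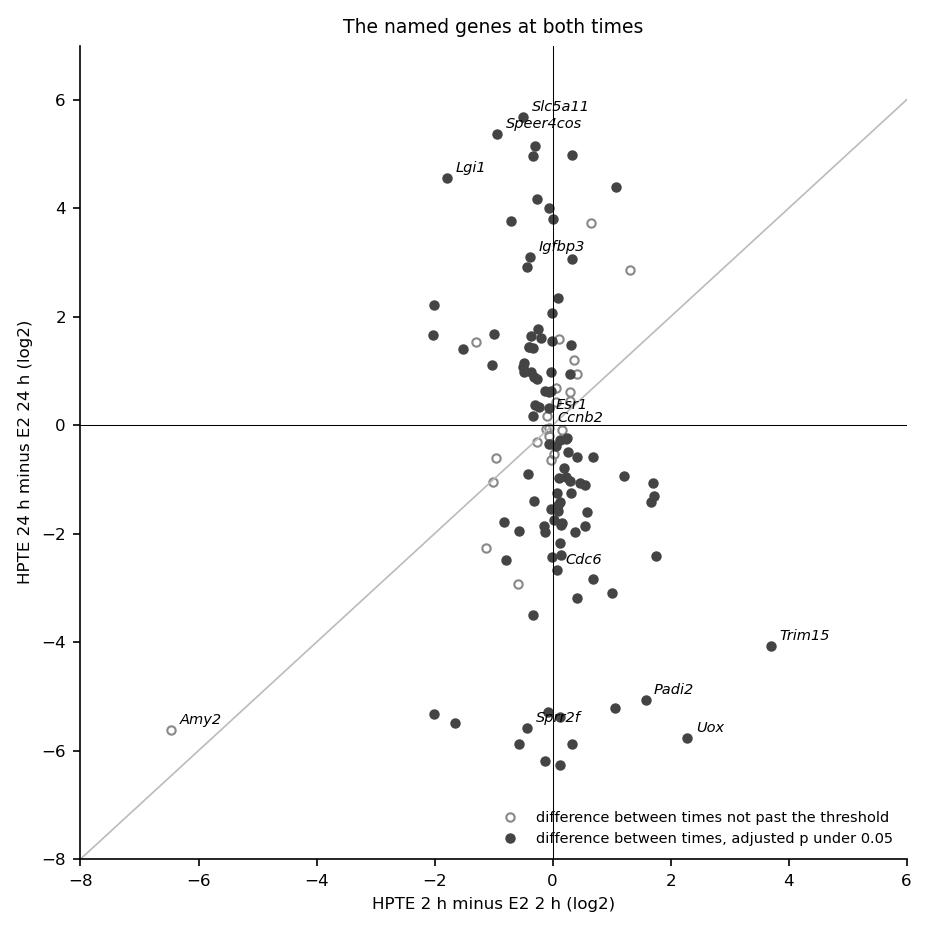
Difference between HPTE and E2 at 2 h (horizontal) and at 24 h (vertical), both log2, for the 127 named genes, with the line of equal difference in grey. Filled points passed the test of a change between times (102 genes) and open points did not. Most points lie near 0 at 2 h and spread vertically, while Trim15 and Uox lie at the lower right. The genes were named in part for large differences at 24 h or large changes between times, which fixes part of that spread.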

How the data were processed

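Uterine RNA of individual mice was hybridised to 20 one-colour Agilent mouse arrays in 7 groups, of which 5 arrays enter the comparison. The intensity values deposited by the authors are the processed signals of Agilent Feature Extraction 9.5, background-subtracted and not scaled between arrays, and the deposited value table held the same intensities on all 20 arrays (within a relative 1e-06). Per the file headers, other columns flag spots well above background, saturated or outlying.

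Control and outlier spots were left out and spots of 1 probe averaged. The log2 intensity minus the 75th percentile of its array was fitted with limma 3.58.1 in R 4.3.3 as 7 group means over all 20 arrays. These groups, BPA at 2 h and 24 h included, share 1 estimate of the spread. The p values were adjusted by Benjamini-Hochberg over the 30936 probes tested (threshold 0.05). List genes are read by the probe with the highest mean. Symbols came from RefSeq by accession for 22951 probes, by symbol for 6659 and by synonym for 3109, and from the files for 8455. Probe positions are those of the files (mm7). Steps were tested on simulated data.

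Genes named are the 12 largest decreases and increases without overlap between the groups, the 3 extreme members of each list in either direction, the late transcripts followed by PCR with Esr1 and Pgr, and the 3 largest changes between times in either direction. Other list members are named beside them, and the values of 2 genes that the rule names are not reported here. The members, lists and tests were chosen with earlier results of these data known. Alternatives changed the background correction, scaling, filter, array weights, blocks and the arrays included. The number of arrays limits the precision.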

Additional observations from a re-analysis of the deposited data

Results flagged for a closer look

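The difference between HPTE and E2 was not the same at 24 h as at 2 h for 14978 probes and for 102 of the 127 named genes, by the limma test of the change between times. The genes were named in part for large differences at 24 h or large changes between times, so their share is fixed in part by that choice. Among genes far lower with HPTE at 24 h, the change of the log2 difference from 2 h to 24 h was -8.05 for Uox, -7.777 for Trim15, -6.392 for Atp2c2, -6.268 for Unc5cl, -6.214 for Gsdmc2, -6.068 for Krt85, -5.491 for Chil5, -5.315 for Sprr2d, -5.219 for the dimmer Sprr2a1 probe, -5.155 for Sprr2f, -3.849 for Chil1 and -3.324 for Krt12. Among genes far higher with HPTE at 24 h it was 6.347 for Lgi1, 6.304 for Speer4cos, 6.171 for Slc5a11, 5.447 for Ano2, 5.279 for Coch, 4.665 for Cadps, 4.46 for Cldn16, 4.43 for Aldh1a3, 4.064 for Car4, 3.8 for Inmt and 3.32 for Kcne2. Values for genes not well above background on any array of at least 1 of the 4 groups (Uox, Gsdmc2, Sprr2d, Chil1, Krt12, Lgi1, Speer4cos, Ano2, Cadps, Cldn16 and Car4) are fitted values and no bounds, and the probes of Trim15 and Uox were well above background on 1 of the 3 HPTE arrays at 24 h. Of the late transcripts followed by PCR, Cdk1 changed by -1.184, and Pgr changed by -0.4884.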

How the results depend on the processing

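Fewer probes passed with spike-in scaling (6087, of them 1430 higher and 4657 lower with HPTE), with a 2-fold minimum (4605, 2707 and 1898) and with an unadjusted p under 0.001, 2-fold and a signal over 100 (3196, 1670 and 1526), and 5124 were higher without scaling. Leaving out each 24 h array gave 11837 to 14813 called, 6496 to 8317 higher and 5341 to 6535 lower. The change between times was called for 7268 probes with spike-in scaling (992 higher), and without scaling 2688 were higher and 10945 lower. The median of all probes was -0.072 without scaling and -0.2569 with spike-in scaling. The smooth muscle median was -0.072 with normexp correction, -0.1377 without scaling, -0.3227 with spike-in scaling and -0.1212 within slide 5. Steroid receptors were at -0.038 without scaling and -0.223 with spike-in scaling, growth factors at -0.0463 and immediate early genes at -0.0154 with spike-in scaling, and interferon genes at 0.1597 within slide 5. Signs also turned for Srebf2 (0.0036), Polr1c (0.1795) and Ccnb2 (0.0949) with normexp correction, for Npm1 (0.0278), Polr1c (0.1399) and Ccnb2 (0.0593) with quantile normalization, and for Pttg1 (-0.003), Dnajb9 (-0.1553) and Esr1 (-0.1517) with spike-in scaling. Ccnb2 ranged from -0.1614 without E2 24 h replicate 2 to 0.0465 without E2 24 h replicate 3. The causes were not tested. With the replicate number as a block 15302 probes passed at 24 h. Deviations of same-numbered arrays from their group means had r = 0.155 and 0.114. The deviations of the 2 E2 arrays mirror each other, so these values are not independent, and the arrays of replicate 3 also share a slide. With 2 shared numbers the arrays were not treated as paired. Of the 112 named genes that passed, 81 did so without each array in turn and 80 under each scaling. Probes below background limit what can be measured on 1 side of the largest differences.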

Other observations

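Some gene families, chosen after their values were seen and read by the brightest probe of each gene, were looked at whole. Of 9 small proline-rich protein genes tested, 8 were lower with HPTE, and the exception was the Sprr2a1 probe described above, at 155800 to 166900 with HPTE and 144300 and 159700 with E2. Sprr1a was at 220.5, 996 and 505 with HPTE and 6299 and 11470 with E2, and Sprr2b, the smallest difference that passed, at 1609, 1050 and 1230 against 6785 and 7919. Probes of these genes may read each other's transcripts, so they are not separate measurements. All 3 gasdermin C genes were lower with HPTE, Gsdmc at -2.56 and Gsdmc3 at -2.42.

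Keratins were mixed, with 11 of 32 lower and 3 higher, beside 22.8% and 28.5% of all probes. The simple epithelial keratin Krt7 was at 19200, 20780 and 20130 with HPTE and 93190 and 94360 with E2, while its relative Krt18 was at 127100 to 138400 with HPTE and 99050 and 113200 with E2 and did not pass (adjusted p = 0.102 in limma). Krt20 was higher with HPTE, at 605, 349 and 573 against 90.3 and 81.6. The basal keratin Krt5 varied widely within groups, from 169 to 20870 with HPTE and from 11690 to 70190 with E2, and Krt14 varied in the same order of arrays.

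Claudins, which seal tight junctions, lay in both directions, with 4 of 17 lower and 6 higher. Over all probes 22.8% were lower and 28.5% higher. Cldn7 was at 16730, 13890 and 16280 with HPTE and 60040 and 65170 with E2, and Cldn2 passed at -2.78. Cldn1 was at 633, 395 and 593 with HPTE and 89.8 and 58.1 with E2, a difference of 2.87, and Cldn22 passed at 1.91. Cldn5, an endothelial claudin and one of the endothelial markers, passed at 1.32. Among the enzymes that make retinoic acid, Aldh1a2 was lower with HPTE, at 5527, 5961 and 7655 against 14020 and 20310, whereas Aldh1a1 was higher, at 11170, 9581 and 11460 against 4798 and 5269, as was Aldh1a3. The glucose transporter Slc5a1 gave -2.29 and Slc5a11 5.67 within 1 transporter family.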
